A study of Mus musculus with 4 samples.

Results

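Ly6c2 and Chil3 monocytes were 175 of the 2914 cells that the authors' deposited annotation labels as monocytes, macrophages and dendritic cells (MoMacDC), in a series of 4440 CD45+ cells. A MoMacDC cell was counted as such a monocyte where the unique molecular identifiers (UMIs, the tags that count RNA molecules) of Ly6c2, Chil3 and Vcan summed to at least 3. It also had to hold fewer than 3 UMIs of C1qa, C1qb and C1qc, and fewer than 3 of Fscn1, Ccr7, Ccl22 and Cacnb3. These 10 gate genes were chosen on measured values in the same cells, so their levels are a description and no test was made on them. Cells came from MC38 tumours, a mouse colon carcinoma line grown in the flank for 7 days, in mice that all carried IL-12p40-IRES-EYFP, an allele whose yellow fluorescent reporter (eYFP) follows the interleukin-12 p40 gene Il12b. The groups were 1 untreated tumour and 2 tumours from mice given 5 mg/kg of agonist anti-CD40 antibody intraperitoneally and taken 2 days later. CD45+ cells were sorted with 7AAD as the viability dye and profiled by inDrops, a droplet method. Neither sex nor age of the mice is stated in the labels.

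Classical monocytes leave the bone marrow through the chemokine receptor CCR2, carry the Ly-6C surface protein that Ly6c2 encodes, and enter inflamed tissue and tumours, where they can turn into macrophages or dendritic cells. Chil3 encodes the chitinase-like protein Ym1, and Vcan the matrix proteoglycan versican. A form of classical monocyte that carries neutrophil granule transcripts has been described in mice. CD40 is a receptor of the tumour necrosis factor family on antigen-presenting cells, and its ligation drives interleukin-12 production in dendritic cells.

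The untreated tumour gave 53 of the monocytes, anti-CD40 tumour 1 gave 93 and anti-CD40 tumour 2 gave 29. They held 37172, 197824 and 42341 UMIs in that order, with medians of 635, 2172 and 1554 UMIs per cell. The remaining 2739 MoMacDC cells had medians of 416, 920 and 915 UMIs. Monocytes were thus the deeper cells in each tumour, and those of anti-CD40 tumour 1 were the deepest. A gate on raw UMIs favours deep cells. Remaining cells with 3 or more C1q UMIs likewise had medians of 486.5, 1244 and 1057 UMIs, and those under all 3 gates 338.5, 756 and 674.5. The 12 libraries were made in 4 sequencing pools, and no cell barcode was shared between libraries. Pools 1 and 2 held the untreated tumour and anti-CD40 tumour 1, while pools 3 and 4 held anti-CD40 tumour 2 alone, so that pool and tumour cannot be told apart for the last. The tumour is the replicate throughout, and cells and libraries are not.

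Chil3 and Ly6c2 made up most of the gate. The monocytes held 1022 UMIs of Chil3, 648 of Ly6c2 and 87 of Vcan, and 118 of the 175 cells had at least 1 UMI of both Chil3 and Ly6c2. A further 30 had Chil3 without Ly6c2 and 27 had Ly6c2 without Chil3. No cell entered on Vcan alone, and 35 of the 40 cells with all 3 transcripts came from anti-CD40 tumour 1. The median gate sum was 4, 12 and 4 UMIs in the same order. Just inside the threshold, with exactly 3 UMIs, were 21, 9 and 12 cells in that order. Just outside it, with exactly 2 UMIs and under the other thresholds, were 11, 11 and 19. Another 7, 24 and 35 MoMacDC cells reached 3 UMIs of the monocyte genes but also held 3 or more of the C1q genes, and none was left out by the dendritic genes.

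**Figure D1:**
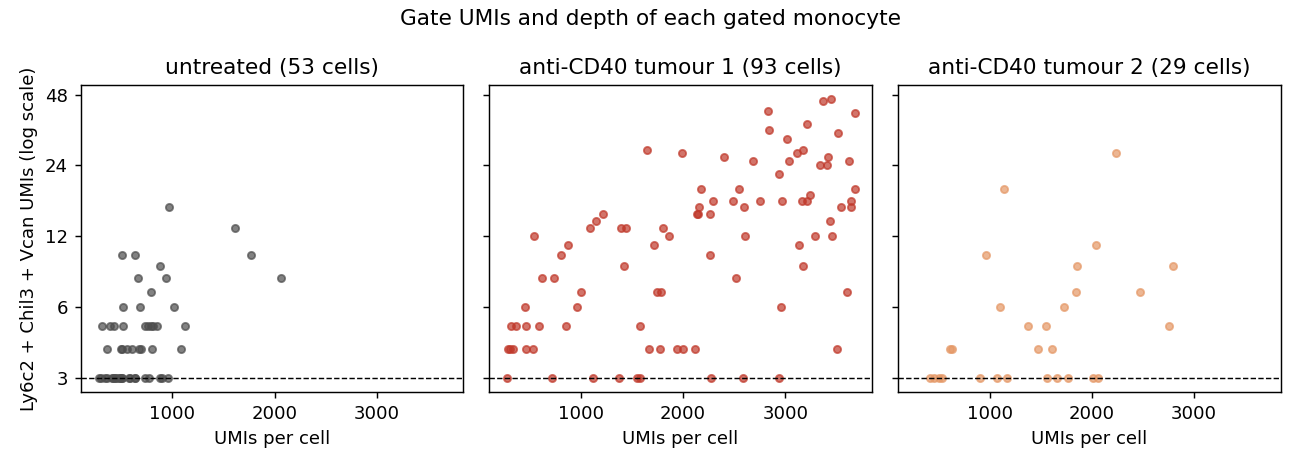
Each point is 1 gated monocyte: total UMIs per cell on the x axis and summed Ly6c2, Chil3 and Vcan UMIs on the y axis (log scale), with the threshold of 3 UMIs dashed. Cells of anti-CD40 tumour 1 reach 46 gate UMIs and are also the deepest, while the medians of the other 2 tumours lie at 4 gate UMIs.

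Monocytes were 4.67% of the MoMacDC cells of the untreated tumour (95% exact Clopper-Pearson interval 3.51 to 6.06, counting error only). The first anti-CD40 tumour held 20.8% (17.1 to 24.8) and the second 2.18% (1.47 to 3.12). The treated tumours lay on opposite sides of the untreated one, so there was no common direction with treatment. The 4 libraries of each tumour kept apart, at 2.74 to 5.57%, 18.3 to 22.1% and 1.76 to 2.45%. Within pool 1 the share was 4.27% untreated against 21.4% in anti-CD40 tumour 1, and within pool 2 it was 5.17% against 20.3%. Of all CD45+ cells, monocytes were 3.79%, 7.59% and 1.60%, a smaller contrast, and 700 of the 1226 CD45+ cells of anti-CD40 tumour 1 were neutrophils. Of CD45+ cells other than neutrophils, monocytes were 3.93%, 17.7% and 1.81%. Since depth differed, each cell was also reduced to 300 random UMIs, which left out 281, 29 and 67 MoMacDC cells. The shares then were 2.46%, 9.07% and 0.554%, in the same order of tumours. The rest of anti-CD40 tumour 1 differed as well: cells with 3 or more C1q UMIs were 32.6% of its MoMacDC cells, against 59.7% (untreated) and 64.1% (second treated tumour).

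**Figure D2:**
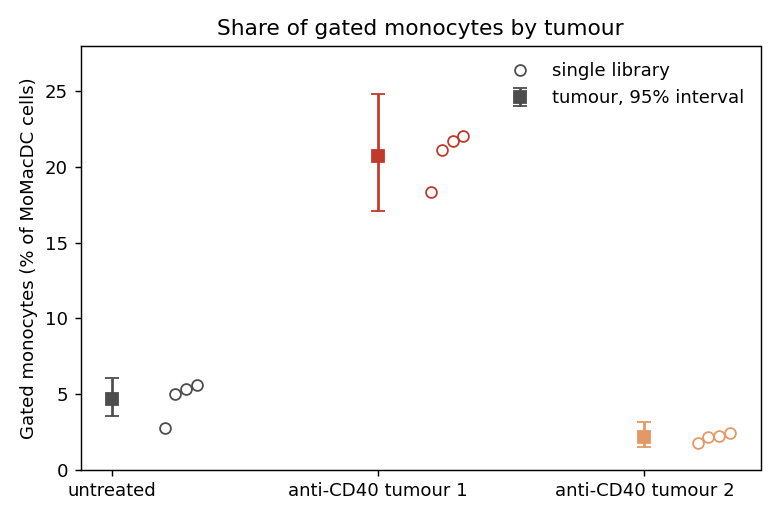
Gated monocytes as a percentage of MoMacDC cells, on the y axis, for the 3 tumours on the x axis: squares are tumours with 95% exact binomial intervals and open circles are single libraries. Anti-CD40 tumour 1 stands at 20.8%, above every library of the other tumours, and anti-CD40 tumour 2 at 2.18%, below the untreated tumour at 4.67%.

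To describe the monocytes beyond their gate, UMIs were summed per tumour over the monocytes and over the remaining MoMacDC cells, and the sums were compared with the tumour as a block (edgeR quasi-likelihood test, Benjamini-Hochberg adjusted p below 0.05). Of 4320 genes tested outside the gate, 78 (1.81%) passed: 19 (0.440%) were higher in monocytes and 59 (1.37%) lower. Scaling by plain library size gave 27 higher and 43 lower. Of the 78 calls, 77 had the same direction in all 3 tumours, the exception being Ptms. Passing with the tumour as a block favours such genes, so this count is a description. Over all genes tested the median log2 difference was -0.03, and 2063 of the 4320 had higher values in monocytes. Levels are given below as CPM, the UMIs of a gene scaled to the total of all UMIs of that kind of cell in the tumour, in the order untreated, anti-CD40 tumour 1, anti-CD40 tumour 2. The C1q gate places cells with macrophage transcripts on the other side of this comparison, where 1676 of the 2739 remaining cells had 3 or more C1q UMIs. Another 150 had 3 or more UMIs of the mature dendritic genes, though that gate itself removed no cell from the monocytes. Compared only with the 913 remaining cells that were under all 3 gates, 16 genes passed, and 15 of the 58 original calls that could be tested were kept. Leaving out pool 1, pool 2, the untreated tumour or anti-CD40 tumour 1 gave 34, 1, 10 and 31 calls. Of these, 30, 1, 8 and 20 were among the original 78.

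Several genes of circulating classical monocytes were higher in the gated cells. Plac8, a small cysteine-rich protein abundant in blood monocytes, was at 5649, 4494 and 2740 CPM against 723, 1525 and 631 in the remaining cells. Its lowest monocyte value was above the highest value of the remaining cells (log2 difference 2.09 ± 0.31 SE, edgeR adjusted p = 8.71e-05), and it also passed against the cells under all 3 gates. Hp, the haemoglobin-binding acute-phase protein haptoglobin, was at 888, 773 and 213 CPM against 52.6, 173 and 59.5. The Hp groups did not overlap either (2.58 ± 0.38, edgeR adjusted p = 8.71e-05). F13a1, the clotting factor XIII A subunit, was at 565, 526 and 354 CPM against 73.2, 183 and 237 (1.53 ± 0.37, edgeR adjusted p = 0.0171), again without overlap. Plac8, Hp and F13a1 were among the called genes of the list of classical monocyte genes, of which 24 were tested. Its median log2 difference was 0.52, and 18 of the 24 had higher values in monocytes, beside 2063 of all 4320 genes. Summed over its genes the list stood at 51141, 34748 and 35616 CPM in monocytes and 17785, 23159 and 23511 CPM in the remaining cells. Lyz2, which did not pass and is given below, was a large part of these sums. Of the 24 genes 4 passed, all higher, and 6 had lower values in monocytes. The called markers went with the name monocyte. The lists of non-classical, neutrophil and granule genes below had larger medians, at 0.93, 1.38 and 1.97.

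Several familiar monocyte genes missed the threshold. Lyz2, the lysozyme of myeloid cells, was at 19692, 15635 and 16013 CPM against 4638, 8997 and 9506 (log2 difference 1.09 ± 0.31, edgeR adjusted p = 0.0562). Ccr2 was at 1076, 187 and 378 CPM against 464, 118 and 202 (0.83 ± 0.32, edgeR adjusted p = 0.293). Both were higher in the monocytes of each tumour. Csf1r, the receptor for the growth factor that sustains monocytes and macrophages, differed by 0.00 ± 0.29 and the lipopolysaccharide co-receptor Cd14 by -0.17 ± 0.32, so neither set the gated cells apart from the others. None of the 9 tested genes of non-classical monocytes passed, but 8 had higher values and the median log2 difference was 0.93, above that of the classical list. Among them Nr4a1, the transcription factor on which those cells depend, was at 0.49 ± 0.30, and Pou2f2 at 1.09 ± 0.32 (edgeR adjusted p = 0.085).

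A second group of genes higher in monocytes encode granule and acute-phase proteins. Prtn3, the azurophil granule protease proteinase 3, was at 80.7, 172 and 47.2 CPM against 5.63, 7.54 and 1.42 (log2 difference 4.25 ± 0.66, edgeR adjusted p = 9.36e-05). The groups did not overlap, although only 3, 34 and 2 monocyte UMIs stood behind the values, and an exon of Prtn3 overlaps one of Plppr3. Lcn2, the iron-siderophore carrier lipocalin 2, was at 80.7, 768 and 94.5 CPM against 0, 50.3 and 26.9 (3.34 ± 0.54, edgeR adjusted p = 0.000453). Slpi, a secreted inhibitor of neutrophil elastase, was at 404, 359 and 425 CPM against 39.4, 168 and 114 (1.82 ± 0.37, edgeR adjusted p = 0.00312), at a similar level in the monocytes of all 3 tumours. Mmp8, neutrophil collagenase, was at 108, 187 and 118 CPM against 15.0, 30.2 and 51.0. Saa3, an acute-phase apolipoprotein, was at 26.9, 505 and 94.5 CPM against 3.75, 116 and 41.1. Lcn2 and Saa3 were thus carried mainly by anti-CD40 tumour 1, while Slpi and Mmp8 were not. Of the 8 tested genes in the list of granule and acute-phase genes of monocytes, 5 passed, all higher (Prtn3, Lcn2, Mmp8, Saa3 and the WAP-domain gene Wfdc17), and the median log2 difference was 1.97.

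Neutrophil values stand beside these genes. The list of 15 neutrophil genes summed to 942, 6036 and 2196 CPM in monocytes, 501, 812 and 1326 CPM in the remaining MoMacDC cells, and 45125, 118046 and 77165 CPM in annotated neutrophils. Of its 8 tested members 7 had higher values in monocytes than in the remaining cells, 2 passed (Mmp8 and G0s2), and the median log2 difference was 1.38. Of the other members, Retnlg had 1, 0 and 0 UMIs in monocytes against 26, 6979 and 890 in neutrophils, and Camp, Ngp and Mmp9 had none in any monocyte. Prtn3 had 0, 3 and 0 UMIs in the neutrophils. Cells with at least 2 UMIs of neutrophil genes (Retnlg, Csf3r, Cxcr2, Mmp8, Mmp9, Ngp, Camp, Ltf) or of T, NK or B cell genes were 3 of 53, 9 of 93 and 6 of 29 monocytes. Without such cells 97 genes passed, and 70 of the 72 original calls that could be tested were kept. Lcn2 and Saa3 kept their calls, but Slpi did not (log2 difference 1.07 ± 0.41, edgeR adjusted p = 0.209), and Prtn3 and Mmp8 could not be tested. The 11 T and NK cell genes were all at 0 in the monocytes of the first 2 tumours and summed to 142 CPM in anti-CD40 tumour 2.

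Other genes higher in monocytes belong to no common list. Lpl, lipoprotein lipase, was at 135, 1274 and 779 CPM against 18.8, 412 and 272 (log2 difference 1.65 ± 0.35, edgeR adjusted p = 0.00418). Gsr, glutathione reductase, was at 188, 890 and 921 CPM against 48.8, 374 and 284 (1.44 ± 0.33, edgeR adjusted p = 0.00836). Ccl2, the ligand of CCR2, was at 592, 192 and 402 CPM against 165, 143 and 85.0 (1.34 ± 0.36, edgeR adjusted p = 0.0375). Lpl and Gsr were low in the untreated tumour in both kinds of cell, so the excess in monocytes held within each tumour while the levels overlapped across tumours.

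Genes of antigen presentation by MHC class II were lower in the monocytes. Of the 7 tested class II genes 5 passed, all lower. All 7 had lower values, and this held in every tumour, with a median log2 difference of -2.55. H2-Aa, the alpha chain of I-A, was at 1237, 233 and 3755 CPM against 7240, 3760 and 6810. The H2-Aa groups all but touched, since the monocytes of anti-CD40 tumour 2 nearly reached the remaining cells of tumour 1 (log2 difference -2.55 ± 0.48, edgeR adjusted p = 0.0139). Cd74, the invariant chain, was at 1802, 374 and 3991 CPM against 8492, 4104 and 6499 (-2.23 ± 0.40, edgeR adjusted p = 0.00349). Ciita, the master regulator of class II transcription, had 1 UMI in all monocytes, and this was 0.0467 of the number the remaining cells' rates gave (interval 0.00118 to 0.260). Class II of the monocytes was lowest in anti-CD40 tumour 1 and highest in anti-CD40 tumour 2, whereas that of the remaining cells was highest in the untreated tumour: the 10 genes summed to 5246, 955 and 11596 CPM in monocytes and 28307, 12800 and 21654 CPM in the remaining cells. None of the class II genes passed against the remaining cells that were under all 3 gates.

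Of 17 tested macrophage genes 7 passed, all lower, and the median log2 difference was -1.60. Cells with 3 or more C1q UMIs, which the gate bars from the monocytes, were 1676 of the 2739 remaining cells. The macrophage list summed to 6241, 2386 and 8408 CPM in monocytes and 13982, 7225 and 12680 in the remaining cells. In the remaining cells under all 3 gates it was nearer the monocytes, at 8567, 6824 and 9957 CPM. Apoe, the lipid carrier apolipoprotein E, was at 1829, 152 and 2173 CPM against 6042, 1626 and 4806 (-2.15 ± 0.34, edgeR adjusted p = 0.000176). Monocytes were lower in each tumour, but the untreated and second treated tumours' monocytes were above the remaining cells of anti-CD40 tumour 1. Pf4, a platelet-factor chemokine also made by tissue macrophages, had 2, 0 and 0 UMIs, which was 0.0384 of the number the remaining cells' rates gave (interval 0.00465 to 0.139). Trem2, a lipid receptor of macrophages, was at 53.8, 5.05 and 23.6 CPM against 231, 45.2 and 167. The others called lower were Axl, Cd63, Ctsl and Lgmn.

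Some genes of hypoxia, metal binding and suppressive macrophages were also lower in the gated cells. Arg1, the arginase of tumour macrophages, was at 1453, 318 and 1724 CPM against 2896, 1902 and 3173, without overlap (log2 difference -1.59 ± 0.32, edgeR adjusted p = 0.0031). Vegfa, the angiogenic growth factor, was at 188, 40.4 and 236 CPM against 265, 359 and 560 (-1.84 ± 0.41, edgeR adjusted p = 0.00836). Bnip3, a mitophagy receptor induced by low oxygen, was at 53.8, 20.2 and 118 CPM against 161, 156 and 369. Of 17 tested genes of glycolysis and hypoxia, Vegfa, Bnip3 and Ndrg1 passed and 14 had lower values, with a median of -0.59. The metallothionein Mt2 had 1 UMI in all monocytes (0.0236 of the number the remaining cells' rates gave, interval 0.000599 to 0.132), against 80.7, 136 and 294 CPM in the remaining cells. Bnip3 and Mt2 also passed against the cells under all 3 gates. Ccl5, a chemokine for T cells, was at 108, 45.5 and 307 CPM against 633, 1410 and 886, without overlap (-3.21 ± 0.52, edgeR adjusted p = 0.0031).

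The reporter of interleukin-12 p40 was not detected in any monocyte. eYFP had 0 UMIs in the 175 cells and 105, 221 and 65.8 CPM in the remaining cells, which were at least 16.8-fold higher, taking 3 counts over all monocytes as the floor. In the cells under all 3 gates eYFP was at 34.5, 53.8 and 2.91 CPM. The remaining cells include 150 with 3 or more UMIs of the mature dendritic genes. The part of those cells in the eYFP difference, and in the differences of the dendritic genes below, was not tested. Il12b itself also had 0 UMIs in monocytes, but it was at 0, 2.51 and 0.708 CPM in the remaining cells, so that its absence was not detectable as a difference at this depth. The other genes called lower with 0 monocyte UMIs were 4 in number. The remaining cells were at least 18.4-fold higher for Ramp3, a co-receptor for adrenomedullin, 16.7-fold for Serpinb6b, 14.0-fold for Tbc1d4 and 5.97-fold for Flt3, the growth factor receptor of dendritic cells. Cd40 was at 53.8, 35.4 and 142 CPM in monocytes against 67.6, 123 and 81.4 (log2 difference -0.73 ± 0.53, edgeR adjusted p = 0.761), with 15 UMIs in all, so the transcript of the antibody's target was detected at a low level.

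**Figure D3:**
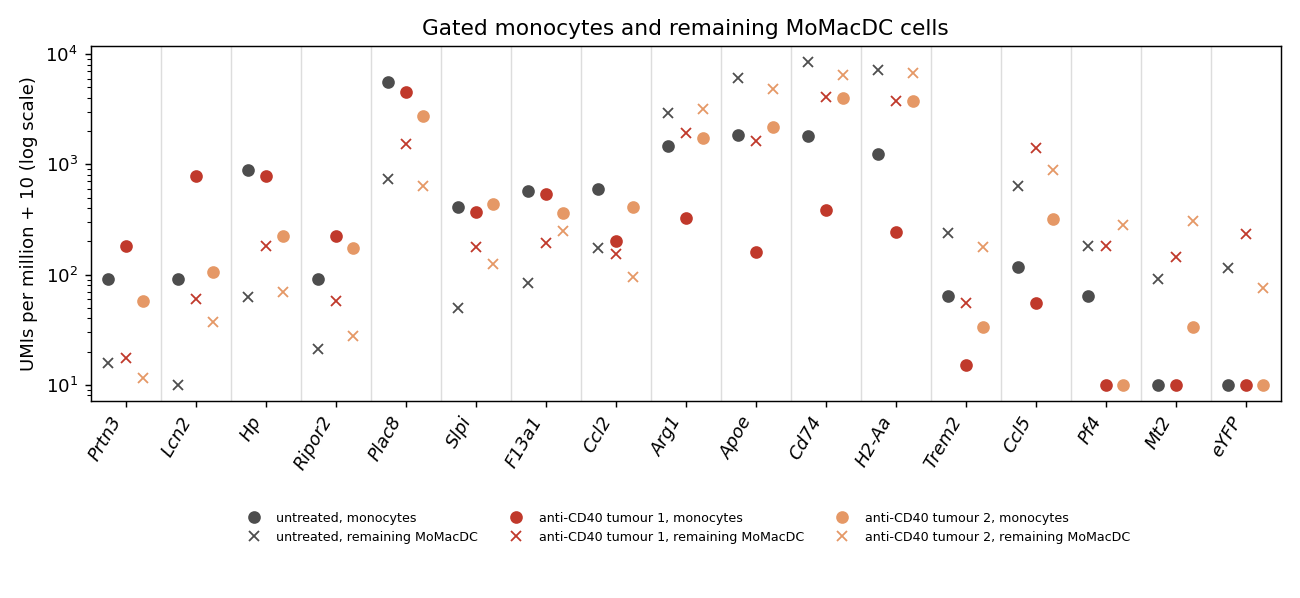
Level of 17 genes (x axis) in CPM plus 10 (y axis, log scale), for gated monocytes (circles) and remaining MoMacDC cells (crosses) of each tumour (colours). Circles lie above crosses in every tumour from Prtn3 to Ccl2 and below them from Arg1 to eYFP, which has no monocyte UMI.

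The monocytes of anti-CD40 tumour 1 varied among themselves with the gate sum. Its 67 cells with 6 or more gate UMIs had a median of 2602 UMIs, and its 26 cells with 3 to 5 had 1244.5. Arg1 was at 0 in the first set and at 1882 CPM (63 UMIs) in the second. Apoe was at 60.8 CPM in the first set and 597 in the second. All Arg1 UMIs of this tumour's monocytes therefore came from the cells nearest the threshold. Lcn2 ran the other way, at 901 against 119 CPM, as did Hp at 894 against 179 and F13a1 at 615 against 90, while Plac8 was at 4521 against 4361 CPM. For Arg1 the other tumours did not show the same split: it was at 1226 CPM in the 13 high-gate cells against 1575 in the 40 low-gate cells of the untreated tumour, and at 2197 in 10 against 1367 in 19 cells of anti-CD40 tumour 2. Hp in anti-CD40 tumour 2 ran as in tumour 1, at 385 against 82.9 CPM from 7 and 2 UMIs, but the other way in the untreated tumour, at 460 against 1119 CPM. F13a1, whose 90 CPM in tumour 1 came from 3 UMIs, did not repeat its split. It was at 537 against 580 CPM in the untreated tumour and 330 against 373 CPM in anti-CD40 tumour 2. Lcn2 had at most 3 UMIs in any set of these other tumours. No test was made, since the sets were cut on the gate.

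Anti-CD40 monocytes were then compared with untreated ones. With 1 tumour against 2, this rests on the assumption that untreated tumours vary as the treated pair did, and 1 residual degree of freedom. Of 1144 genes tested, 12 (1.05%) passed the edgeR test, 6 higher (0.524%) and 6 lower (0.524%). Each had the same direction in both treated tumours, but passing favours such genes. Of all 1144 genes, 407 were higher in both treated tumours and 430 lower in both. DESeq2 called 0 genes, with 25 at an unadjusted p below 0.05, and edgeR called 0 without pool 4 and 4 without pool 2. The median log2 difference of all genes was 0.02.

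The alarmin genes S100a8 and S100a9, whose products form the calprotectin complex, rose. S100a8 (chr3:90668978-90670035, plus strand, GRCm38) had 0, 557 and 18 UMIs in monocytes, that is 0, 2816 and 425 CPM. Treated monocytes were at least 29.7-fold higher, taking 3 counts in the untreated monocytes as the floor, with at least 34.9-fold in tumour 1 and 5.27-fold in tumour 2 (edgeR adjusted p = 0.000427). S100a9 had 2, 497 and 26 UMIs, or 53.8, 2512 and 614 CPM, a ratio of 40.5 with a counting interval of 11.1 to 335 (edgeR adjusted p = 0.00152). Both treated tumours were above the untreated one, and tumour 1 far above tumour 2. S100a8 was found in 71.0% of the monocytes of anti-CD40 tumour 1 and 13.8% of those of tumour 2. In T cells, which should lack it, the shares were 0.667%, 8.33% and 0.741%, at median depths of 475.5, 778 and 651 UMIs. With every cell at 300 UMIs the monocyte shares were 0% (interval 0 to 6.85), 44.0% (33.6 to 54.8) and 10.3% (2.19 to 27.4), and those of T cells 0%, 6.38% and 0.787%. The monocyte share of tumour 1 was thus above the T cell share at equal depth, whereas the intervals of tumour 2 overlapped.

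Neutrophils carried most S100a8 of the series, with 203, 23023 and 3294 UMIs, and they were most numerous in anti-CD40 tumour 1. After cells with 2 or more UMIs of the other neutrophil or lymphocyte genes were left out, S100a8 had 0, 386 and 5 UMIs in monocytes and no longer passed (edgeR adjusted p = 0.525). S100a9 then had 0, 286 and 9 UMIs and still did (edgeR adjusted p = 0.00177). Retnlg stayed at 0 UMIs in the treated monocytes, as given above. The part of neutrophil RNA in the S100a8 value was not tested. The remaining MoMacDC cells had S100a8 at 39.4, 287 and 236 CPM, also higher in both treated tumours.

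A further 4 genes rose. Cxcl2, the neutrophil-attracting chemokine, was at 323, 1107 and 6117 CPM (log2 difference 3.49 ± 0.90, edgeR adjusted p = 0.0233), and the remaining MoMacDC cells ran in the same order at 610, 2342 and 4438 CPM. Ctsc, the protease that activates granule serine proteases, was at 430, 2826 and 3850 CPM (2.97 ± 0.84, edgeR adjusted p = 0.0416), whereas the remaining cells stood at 1781, 1817 and 2363 CPM. Hspa1b, a heat-shock chaperone whose near copy is Hspa1a, had 0, 20 and 25 UMIs and was at least 2.32-fold higher (edgeR adjusted p = 0.0355). Pclaf, a clamp-binding factor of DNA replication, had 0, 105 and 3 UMIs and was at least 5.57-fold higher (edgeR adjusted p = 0.0258). Both bounds pool the treated tumours. Pclaf came almost wholly from tumour 1, and its 3 UMIs in tumour 2 gave no bound there. Hspa1b was at 0 in 3 of the 4 libraries of tumour 2, so that 1 library held all 25 of its UMIs there, and without second-type cells (those with 2 or more UMIs of the other neutrophil or lymphocyte genes) it had 0, 17 and 5 UMIs. The dissociation stress list of 14 genes, which holds Hspa1b, summed to 12805, 10110 and 22390 CPM in monocytes. Of the 4, only Ctsc had single libraries that did not overlap between treated and untreated tumours, at 0 to 758 CPM untreated against 2303 to 3542 and 2411 to 4807. Such a gap did not mark out called genes, since Plac8, Ccr2, Cd38 and Nr1h3 did not overlap either and were not called. Libraries of a tumour are not replicates, and the share without overlap over all genes was not counted.

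**Figure D4:**
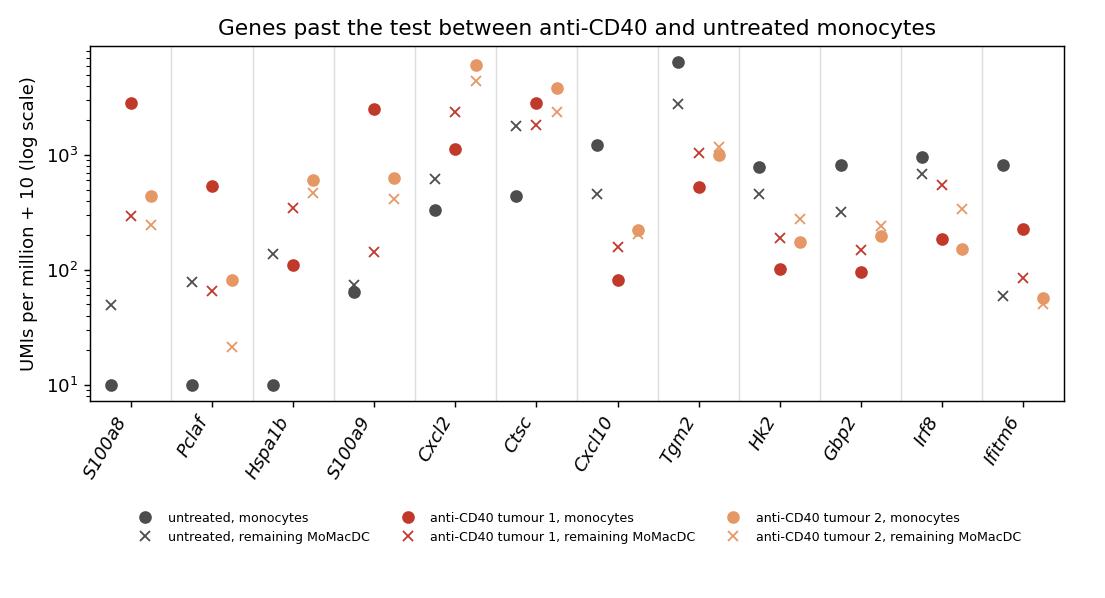
The 12 genes past the test between anti-CD40 and untreated monocytes (x axis), in CPM plus 10 (y axis, log scale), for gated monocytes (circles) and remaining MoMacDC cells (crosses) of each tumour (colours). The untreated circle is the lowest circle for the first 6 genes, from S100a8 to Ctsc, and the highest for the last 6, from Cxcl10 to Ifitm6.

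The 6 genes that fell include Cxcl10 and Gbp2, which are in the interferon lists, and the myeloid transcription factor Irf8. Cxcl10, a chemokine that draws activated T cells through CXCR3, was at 1211, 70.8 and 213 CPM from 45, 14 and 9 UMIs (log2 difference -3.27 ± 0.70, edgeR adjusted p = 0.00152). Gbp2, a guanylate-binding GTPase of cell-autonomous defence, was at 807, 85.9 and 189 CPM (-2.67 ± 0.68, edgeR adjusted p = 0.0193). Irf8, which directs monocyte and dendritic cell fate, was at 942, 177 and 142 CPM (-2.50 ± 0.65, edgeR adjusted p = 0.0193). Both treated tumours were below the untreated one for each. The single libraries of treated and untreated tumours did not overlap for Gbp2 and Irf8 but did for Cxcl10, with the same limit as for Ctsc. In the remaining MoMacDC cells Cxcl10 was at 450, 148 and 197 CPM, Gbp2 at 306, 138 and 231 and Irf8 at 678, 543 and 326, the same order of untreated above treated.

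Sequence upstream of a RefSeq start is shown for Cxcl10 and Gbp2, the called members of the interferon lists, and for Irf8. They are RefSeq sequences of GRCm38.p6, read 5′ to 3′ on the gene's strand and ending at the base before the RefSeq start, except that for Gbp2 a 30-base stretch around the motif is given. The gene annotation starts Gbp2 at 142620602, inside that stretch. Its motif is thus upstream of the RefSeq start but inside the gene as annotated. Capitals mark matches to an interferon response element, here GAAA, any 2 bases and GAAA, which appears in Gbp2 as its reverse complement, and, in Irf8, matches to TTCNNNGAA (a gamma-activated site).
Cxcl10, chr5:92348890-92349139, minus strand: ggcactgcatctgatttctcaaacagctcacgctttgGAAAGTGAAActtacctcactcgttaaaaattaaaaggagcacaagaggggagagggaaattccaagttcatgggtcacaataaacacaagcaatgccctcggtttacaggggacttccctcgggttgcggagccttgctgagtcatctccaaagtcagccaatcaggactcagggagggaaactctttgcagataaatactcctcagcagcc
Gbp2, chr3:142620594-142620623, plus strand: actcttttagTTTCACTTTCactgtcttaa
Irf8, chr8:120736108-120736357, plus strand: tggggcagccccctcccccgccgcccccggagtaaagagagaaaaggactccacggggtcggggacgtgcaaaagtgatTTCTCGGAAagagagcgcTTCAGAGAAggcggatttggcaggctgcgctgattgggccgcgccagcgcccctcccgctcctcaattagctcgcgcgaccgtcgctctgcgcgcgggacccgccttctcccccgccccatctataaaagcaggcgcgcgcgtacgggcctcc

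Both strands of 300 bases were searched at each RefSeq start, 250 before it and 50 after. The interferon response motif was found in 1131 of 32851 such promoters (3.44%) and TTCNNNGAA in 2726 (8.30%). Of the 5 genes called lower that matched a promoter, Cxcl10 and Gbp2 held the first motif and Irf8 and Ifitm6 the second. Irf8 has a second RefSeq start, whose window held neither motif, so these counts are per gene while the percentages are per promoter. Of 25 matched interferon-list genes among those tested, 12 held the first motif. A match describes letters in a window and shows no binding.

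The remaining genes that fell were Tgm2, Hk2 and Ifitm6. Tgm2, the protein-crosslinking tissue transglutaminase, was at 6430, 516 and 992 CPM (log2 difference -3.10 ± 0.68, edgeR adjusted p = 0.0018), and its libraries ranged over 3928 to 8110 untreated, 347 to 589 in tumour 1 and 643 to 1163 in tumour 2. Hk2, the inducible hexokinase of glycolysis, was at 780, 91.0 and 165 CPM (-2.69 ± 0.70, edgeR adjusted p = 0.0193). Ifitm6, a gene of the interferon-induced transmembrane family with near copies and not in the interferon lists, was at 807, 217 and 47.2 CPM (-2.39 ± 0.65, edgeR adjusted p = 0.0305). Tgm2 had the most UMIs of the 6 genes that fell and kept its call in cells reduced to 300 UMIs (edgeR adjusted p = 0.00909). Tgm2 in the remaining cells was at 2778, 1033 and 1167 CPM, also highest in the untreated tumour. Exons of Cxcl10 overlap those of Art3, and exons of Tgm2 those of Rprd1b, and no source used here states whether the counting used strand.

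Most tested interferon genes had lower values in both treated tumours, though few passed the test. Of the 14 tested interferon gamma genes 2 passed (Cxcl10 and Gbp2), 11 were lower in both treated tumours and 1 was higher in both. The median log2 difference was -1.86, beside 0.02 for all genes, of which 430 of 1144 were lower in both treated tumours. Of 16 tested type I interferon genes none passed, 14 were lower in both and the median was -1.55. Oasl1, for one, was at 538, 55.6 and 118 CPM (-2.76 ± 0.84, edgeR adjusted p = 0.0753) and the antiviral radical enzyme Rsad2 at 995, 273 and 189 (-2.04 ± 0.66, edgeR adjusted p = 0.103). Summed over all list members, tested or not, the gamma list stood at 7828, 2447 and 3212 CPM in monocytes and 5359, 3222 and 3690 in the remaining cells. The type I list stood at 11353, 4605 and 5338 CPM in monocytes but 5746, 5506 and 5312 in the remaining cells. The untreated monocytes were thus the highest of the 6 sums in both lists, and the treated monocytes lay at or below the remaining cells of the same tumour except for the type I list in tumour 2, where they were nearly level.

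Few classical monocyte and granule genes passed between treated and untreated monocytes. Of 23 tested classical monocyte genes 1 passed (Irf8, lower), 16 were lower in both treated tumours and the median was -0.62. Ccr2 was at 1076, 187 and 378 CPM (log2 difference -1.98 ± 0.69, edgeR adjusted p = 0.14), and the trafficking receptor Ccr1 at 1291, 258 and 425 (-1.94 ± 0.68, edgeR adjusted p = 0.14). Plac8 differed by -0.62 ± 0.68. None of these 3 passed. Of the 6 tested granule and acute-phase genes S100a8 and S100a9 passed as higher and Ifitm6 as lower. Saa3 had 1, 100 and 4 UMIs, a ratio of 16.1 with a counting interval of 2.83 to 642 (edgeR adjusted p = 0.13), and Lcn2 had 3, 152 and 4, a ratio of 8.05 (2.70 to 39.4, edgeR adjusted p = 0.212). Both came from tumour 1, and the whole list summed to 2287, 7689 and 1795 CPM, on opposite sides of the untreated tumour.

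**Figure D5:**
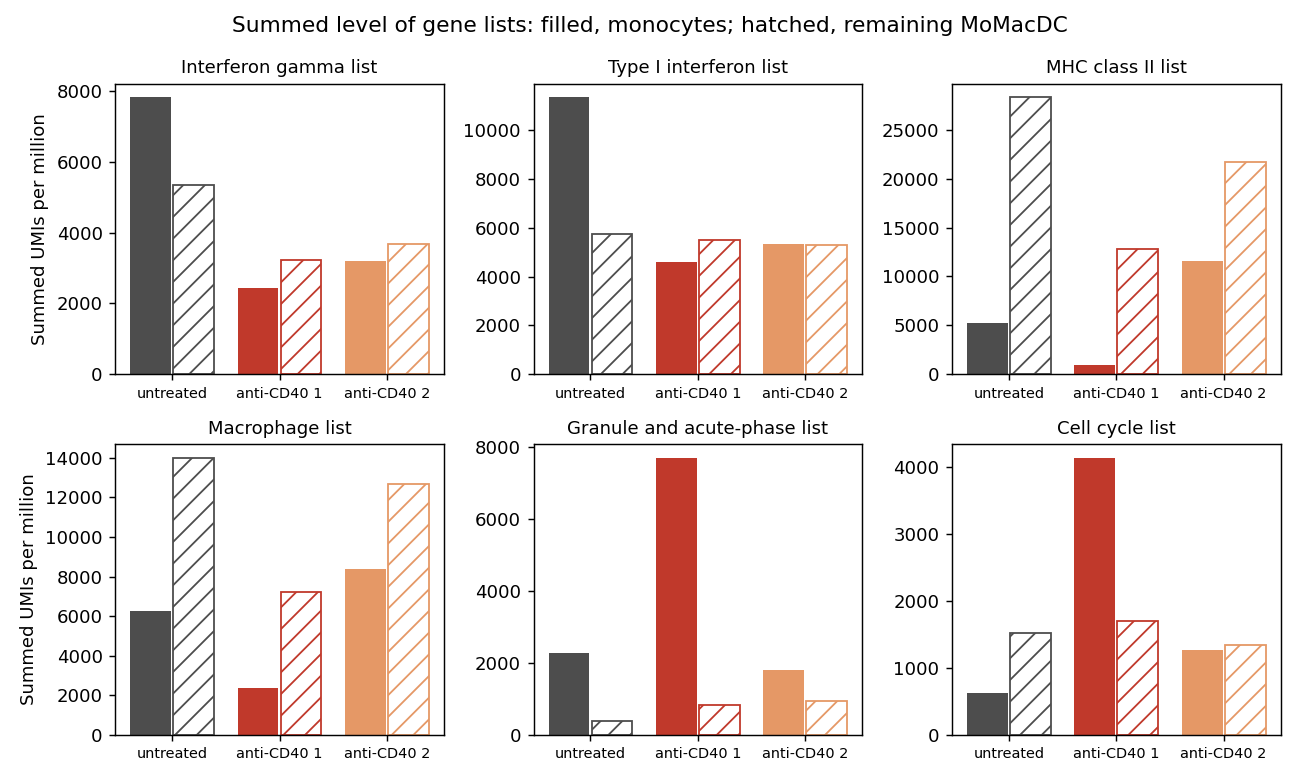
Summed level of 6 gene lists in CPM (y axis, from 0) for the 3 tumours (x axis), filled bars for gated monocytes and hatched bars for remaining MoMacDC cells, 1 value per tumour without error. In both interferon lists the untreated monocyte bar is the tallest, at 7828 and 11353, and in the granule and cell cycle lists the bar of anti-CD40 tumour 1 is, at 7689 and 4135.

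The treated tumours differed from each other in cell cycle genes. The 16 cell cycle genes summed to 619, 4135 and 1275 CPM in monocytes and 1519, 1699 and 1338 in the remaining cells, and 12, 0 and 6 of the 16 were at 0 in monocytes. Stmn1, a microtubule regulator of dividing cells, had 0, 54 and 0 UMIs, and the topoisomerase Top2a 0, 47 and 2. None of the 6 tested genes passed. Monocytes with at least 3 UMIs of the list were 3.77%, 69.9% and 24.1% of cells, but with every cell at 300 UMIs they were 0 of 52 (interval 0 to 6.85%), 10 of 91 (5.40 to 19.3%) and 0 of 29 (0 to 11.9%). The remaining cells at 300 UMIs were at 2.99%, 3.05% and 2.51%. At equal depth the share was highest in the monocytes of tumour 1, with an interval that just overlapped that of its remaining cells (1.47 to 5.54%), and it was not detectable in the monocytes of the other tumours.

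Whether treatment changed the monocytes differently from the remaining MoMacDC cells was tested as an interaction, again with 1 residual degree of freedom. Of 6136 genes tested 1 passed (0.0163%), and 328 had an unadjusted p below 0.05. The 1 gene was Pclaf, with 0, 105 and 3 UMIs in monocytes and 67.6, 55.3 and 11.3 CPM in the remaining cells. Pclaf was thus higher in treated monocytes and lower in treated remaining cells (edgeR adjusted p = 0.0334), but with only 3 monocyte UMIs in tumour 2 and none untreated. DESeq2 called 0 genes, with 35 at an unadjusted p below 0.05. No difference in response between the 2 kinds of cell was therefore shown for S100a8, Cxcl10 or the interferon genes.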

How the data were processed

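The authors deposited UMI counts per gene and cell and a cell annotation. The tools that the submitters' processing notes name are STAR and bcl2fastq, with build GRCm38. Gene counter, strand use, cell filters and handling of doublets: not given in the sources used here; no doublet caller was run. Members and gene lists were chosen with earlier results of these data known. Counts of the 12 libraries were summed per tumour over monocytes and over remaining MoMacDC cells, since cells are not replicates. The 10 gate genes and their near copies Ly6c1 and Chil4 stayed in the library sizes but were not tested. The robust quasi-likelihood test of edgeR 4.0.16 (R 4.3.3) was applied after filterByExpr and TMM scaling. A gene passed the filter on low counts through its higher group, so counts among tested list members are descriptions. Standard errors are the log2 difference divided by the square root of F. Intervals are 95% exact binomial or Poisson and cover counting error only. On simulated counts with known changes, 4-fold changes were recovered for 71.0% of genes between monocytes and remaining cells but 6.67% between treated and untreated, and 8-fold changes for 98.5% and 47.6%. Named genes were up to 12 called rises and 12 called falls with one direction in every tumour, up to 4 per list by absolute change, and a panel. A few list members beyond these were named after their values were seen. Promoters were matched by symbol to RefSeq, and gene positions and exon overlaps come from the GRCm38 annotation. Alternatives were other scalings, DESeq2 1.42.0, no filter, other gates, thinned cells and single pools or tumours left out. One gene that met the naming rule is not reported here.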

Additional observations from a re-analysis of the deposited data

Results flagged for a closer look

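Pclaf differed in its response to anti-CD40 between monocytes and remaining MoMacDC cells, by a test of the difference itself: the fitted interaction was 10.83 on the log2 scale (edgeR adjusted p = 0.0334). Since the untreated monocytes had 0 UMIs of Pclaf, the size depends on the prior count and is no bound. The call was lost without second-type cells (those with 2 or more UMIs of neutrophil, T, NK or B cell genes; edgeR adjusted p = 0.0669), in cells thinned to 300 UMIs (0.983) and without any 1 of the 4 pools (0.081 to 0.814). Pclaf is not in the cell cycle list, whose summed level was 619, 4135 and 1275 CPM in monocytes.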

How the results depend on the processing

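All called genes that could be tested kept their direction in every alternative. The alternatives draw on the same counts, so this was largely set in advance. Between monocytes and remaining cells (78 genes), DESeq2 called 29, a gate of 2 UMIs 50, thinned cells 25, no tumour block 1, and remaining cells under all 3 gates 16. Remaining cells with C1q, an alternative chosen after seeing the data, gave 38, and leaving out 1 pool or tumour gave 1 to 87 (1 without pool 2, 10 without the untreated tumour, 31 without anti-CD40 tumour 1). Between treated and untreated monocytes (12 genes), DESeq2 called 0, no filter 1, a gate of 2 UMIs 19, a gate of 5 UMIs 0 (50 at an unadjusted p below 0.05), Ly6c2 and Vcan alone 3, no second-type cells 6, thinned cells 3, and leaving out 1 pool 0 to 9. Leaving out a treated tumour left no residual degrees of freedom and so no test. In pools 1 and 2, which hold anti-CD40 tumour 1 alone, the fit with the pool as a replicate block called 125, and the unpaired fit, chosen after seeing the data, 180; these pools are libraries of 1 animal per group, so their spread is technical. For the interaction (1 gene), plain library size and RLE called 7 each, a gate of 2 UMIs 5, no second-type cells 2, leaving out 1 pool 0 to 4, and 0 came from DESeq2 (35 unadjusted), no filter (242), a gate of 5 UMIs (193), Ly6c2 and Vcan alone (180) and thinned cells (66). The share of monocytes, in the order untreated, anti-CD40 tumour 1 and tumour 2, was 2.02%, 16.3% and 0.977% with a gate of 5 UMIs, 1.41%, 15.2% and 1.13% on Ly6c2 and Vcan alone, and 2.46%, 9.07% and 0.554% in thinned cells, and 3.61% in tumour 2 with a gate of 2 UMIs. The causes were not tested. Depth limits the untreated monocytes most, at 37172 UMIs.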

Other observations

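Inflammatory NF-kB genes of the monocytes did not move together with treatment. Of 19 tested, Cxcl2 passed, 8 were higher in both treated tumours and 2 lower, beside 407 and 430 of all 1144 genes, with a median log2 difference of 0.78 (0.59 with genes at 0 set to their bound). Il1b, the pyrogenic cytokine, was at 6483, 1527 and 6495 CPM, level between the untreated tumour and anti-CD40 tumour 2 and lowest in tumour 1. Nfkbia, the inhibitor that NF-kB induces, was at 1587, 809 and 3944 CPM. The list summed to 14043, 7183 and 27680 CPM in monocytes, so that the treated tumours stood on opposite sides of the untreated one. The dissociation stress list stood in the same order, at 12805, 10110 and 22390 CPM, with Hspa1b called higher, and its part in the NF-kB values was not tested.

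Antioxidant genes under NRF2 summed to 11460, 11793 and 31435 CPM in monocytes and 16114, 25406 and 33972 in the remaining cells, and 0 of 7 tested passed between treated and untreated monocytes. Hmox1, haem oxygenase 1, was at 135, 389 and 945 CPM in monocytes (log2 difference 2.27 ± 0.87, edgeR adjusted p = 0.193). Nos2, inducible nitric oxide synthase, had 0, 0 and 18 monocyte UMIs, so it was seen only in anti-CD40 tumour 2.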
